A study of Mus musculus with 8 samples.

Results

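The miR-17-92 cluster and its paralog, the miR-106b-25 cluster, are 2 short stretches of the mouse genome that each give rise to several microRNAs from 1 primary transcript. Their 10 members were chosen by name in the deposited tables, with the entries of several precursors summed for each mature microRNA, and make up 10 of 1281 mature microRNAs listed. Of these, 7 belong to miR-17-92 (mmu-miR-17-5p, mmu-miR-18a-5p, mmu-miR-19a-3p, mmu-miR-19b-3p, mmu-miR-20a-5p, mmu-miR-92a-3p and mmu-miR-92a-1-5p) and 3 to the other cluster (mmu-miR-106b-5p, mmu-miR-93-5p and mmu-miR-25-3p). The prefix mmu-, for mouse, is left out below. All 10 were counted in all 8 libraries.

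A microRNA is a short RNA that is cut from a hairpin and guides Argonaute proteins to messenger RNAs, mostly by pairing through its seed near the 5′ end. The miR-17-92 cluster is transcribed under MYC and E2F control in dividing cells, and its products restrain cell cycle inhibitors and pro-death genes such as Cdkn1a and Bcl2l11. In humans, loss of its host gene MIR17HG causes a form of Feingold syndrome with skeletal anomalies. The miR-106b-25 cluster is a paralog that lies inside Mcm7, which encodes a subunit of the replicative helicase.

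Small RNA was sequenced from newborn mouse calvaria and from a calvarial cell line in osteogenic culture. The 3 calvaria libraries came from the parietal and frontal bones of C57BL/6 female mice that carry Prrx1-Cre, a recombinase driven in limb and skull mesenchyme, aged 2 to 3 days. These bones had a brief collagenase and trypsin digestion before freezing, a step that can remove cells at the bone surface. The labels do not say whether the 3 are separate animals, and p-values therefore measure the spread between these samples, which may be technical. The 5 MC3T3 libraries came from MC3T3 E1 sc4, a subclone of a C57BL/6 calvarial pre-osteoblast line, at passage 10 to 15. They stand for day 0 (undifferentiated) and days 6, 10, 17 and 24 with ascorbic acid (50 μg/ml) and β-glycerol phosphate (4 mM). Each day is 1 library pooled from 3 cultures, so no day has a replicate and no pair of days could be tested.

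In the mm10 build (GRCm38) the 6 hairpins of miR-17-92 lie within 836 bases at chr14:115043671-115044506, plus strand, and all 6 fall inside an exon of the long noncoding RNA Mir17hg. The 3 hairpins of miR-106b-25 lie within 498 bases at chr5:138165321-138165818, minus strand, within Mcm7. Mir93 and Mir25 also fall inside an exon of the transcript Mcm7-202, and Mir106b falls inside no annotated exon. The X-linked paralog, miR-106a-363, lies at chrX:52741693-52742567, minus strand, and holds second copies of the miR-19b and miR-92a hairpins. The map of the 3 clusters shows their order and spacing.

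**Figure D1:**
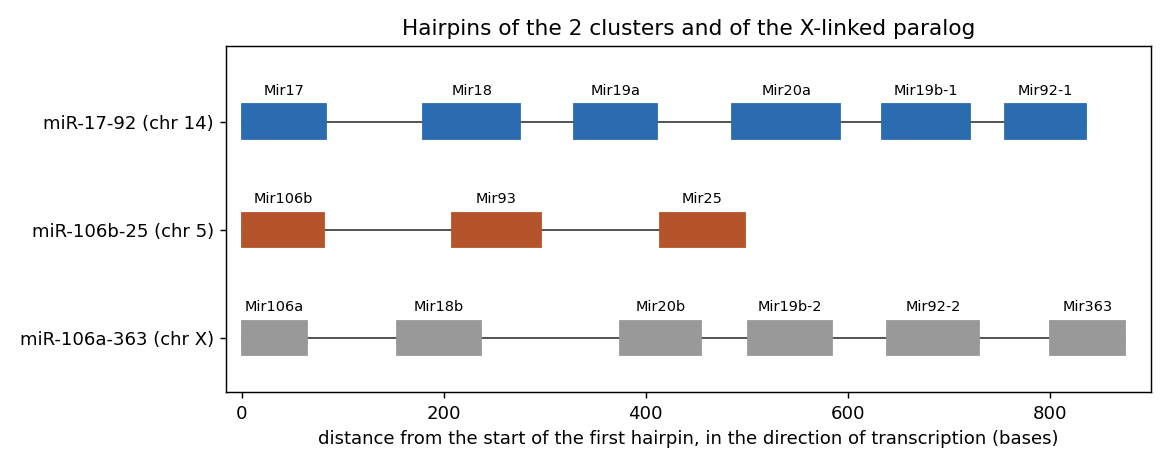
Hairpins (boxes) along the transcript of miR-17-92 (top row), miR-106b-25 (middle row) and the X-linked miR-106a-363 cluster (bottom row), with the x axis giving the distance in bases from the start of the first hairpin. The clusters span 836, 498 and 875 bases with 6, 3 and 6 hairpins.

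The mature sequences below, from RefSeq (GRCm38.p6), matched 10 of 10 members by name and show which of them share a seed, the part that chooses targets. Capitals mark the seed, bases 2 to 8, and all sequences run 5′ to 3′. The first 4 share the seed of the miR-17 family, both miR-19 members share a second seed, and miR-92a-3p shares a further one with miR-25-3p of the other cluster.
miR-17-5p: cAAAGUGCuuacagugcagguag
miR-20a-5p: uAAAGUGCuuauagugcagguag
miR-106b-5p: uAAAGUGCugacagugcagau
miR-93-5p: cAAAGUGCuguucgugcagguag
miR-18a-5p: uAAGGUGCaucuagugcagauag
miR-19a-3p: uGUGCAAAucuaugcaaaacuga
miR-19b-3p: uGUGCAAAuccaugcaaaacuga
miR-92a-3p: uAUUGCACuugucccggccug
miR-25-3p: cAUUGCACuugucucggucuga
miR-92a-1-5p: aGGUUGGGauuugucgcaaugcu

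In its seed miR-18a-5p differs from miR-17-5p by A4G, and miR-92a-1-5p, the other arm of the miR-92a-1 hairpin, has a seed of its own. With positions counted from 1 at the 5′ end, miR-17-5p and miR-20a-5p differ by C1U and C12U, and miR-19a-3p and miR-19b-3p by U11C. In each token the base of the first-named microRNA, or of miR-17-5p where miR-18a-5p is compared, is written first. The X-linked copies are as close, which matters for how reads were assigned. They are shown with the same marking.
miR-106a-5p: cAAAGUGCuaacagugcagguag
miR-20b-5p: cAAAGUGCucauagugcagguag
Against miR-17-5p, miR-106a-5p differs by U10A and miR-20b-5p by U10C and C12U.

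The mature miR-19b-3p and miR-92a-3p are the same at both of their loci, so their values cannot be credited to miR-17-92 alone. The hairpins of miR-92a are shown because they differ outside the mature arm (in capitals, with the seed).
Mir92-1 (chromosome 14): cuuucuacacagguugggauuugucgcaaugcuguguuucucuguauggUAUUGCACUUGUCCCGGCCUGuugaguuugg
Mir92-2 (chromosome X): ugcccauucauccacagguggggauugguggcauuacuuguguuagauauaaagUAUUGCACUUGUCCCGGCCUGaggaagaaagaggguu
The deposited values put 49.9% to 50.0% of miR-19b-3p at the chromosome 14 copy in every library, an even split, and 86.3% to 93.8% of miR-92a-3p. Counts of miR-106b-5p, miR-93-5p, miR-25-3p and miR-92a-1-5p were whole numbers (within 0.005) in 8 of 8 libraries, whereas those of miR-17-5p were whole in 0 of 8, so part of its reads was divided among entries. The rule of that division is not given in the sources at hand, and summing over precursors does not undo a division between near-identical microRNAs.

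Library totals were 1183011 to 2023036 counts in calvaria and 2742368 to 4031962 counts in MC3T3, so a member at the same level has fewer counts in calvaria. The MC3T3 day 0 library stood apart: the share of counts from miR-21a-5p was 5.41% to 9.74% in calvaria, against 45.5% at MC3T3 day 0 and 11.2% to 20.1% on the later days. A large share of 1 microRNA lowers the RPM (counts scaled to a common library total) of all others in that library. TMM scaling, which edgeR uses to set libraries on a common scale, gave day 0 a factor of 0.739, against 1.01 to 1.19 on the later days. Results are therefore given with and without day 0 where it matters. Intervals are exact 95% intervals of counts and cover counting error only, since no molecular identifiers mark which reads come from separate molecules.

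By mean RPM in calvaria the members ranged over a wide span. miR-92a-3p led with 2548 ± 349 RPM (SD, n = 3), followed by miR-20a-5p with 1900 ± 255, miR-25-3p with 1644 ± 65.4 and miR-93-5p with 1023 ± 61.0. Next came miR-17-5p with 675 ± 21.7 and miR-19b-3p with 615 ± 63.2, then miR-106b-5p with 194 ± 13.2, miR-19a-3p with 112 ± 29.8, miR-18a-5p with 45.8 ± 9.78 and miR-92a-1-5p with 4.50 ± 1.81. The ranges of miR-20a-5p and miR-25-3p overlapped, as did those of miR-17-5p and miR-19b-3p, so these neighbours did not differ beyond their spread. Reads of different microRNAs are set side by side here as sequenced, over mature lengths of 21 to 23 bases.

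**Figure D2:**
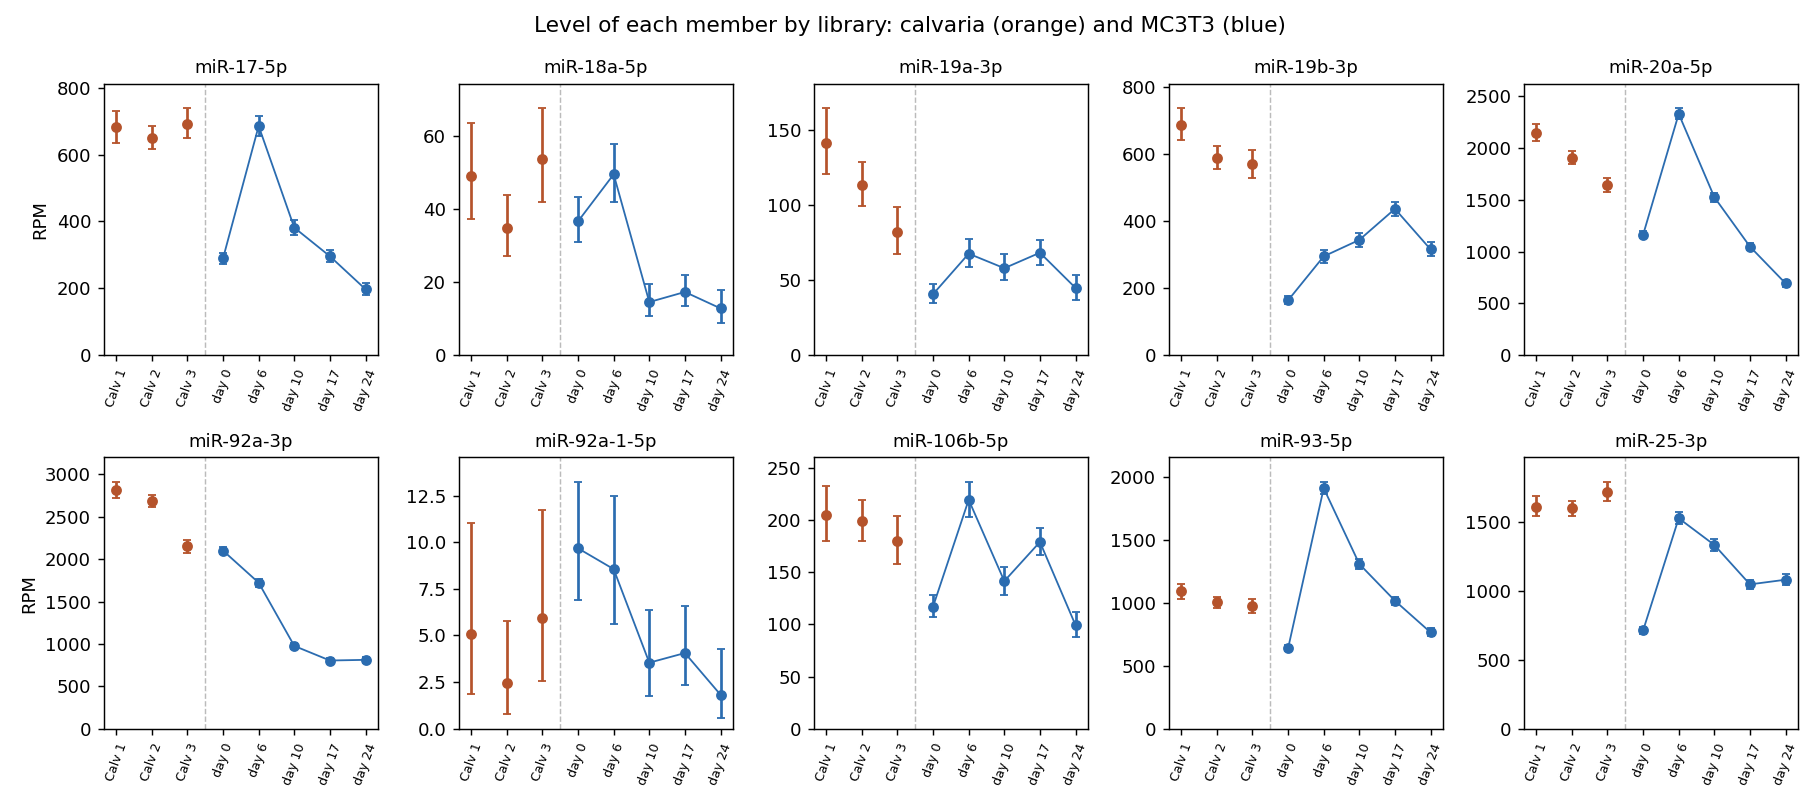
RPM of each member in the 3 calvaria libraries (orange, left) and the 5 MC3T3 days (blue, right), with exact 95% Poisson intervals as bars and a separate linear axis for each member. miR-17-5p, miR-20a-5p, miR-93-5p and miR-25-3p are highest among the MC3T3 days at day 6, miR-92a-3p at day 0, and miR-19b-3p at day 17.

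In the MC3T3 time course the miR-17 seed family was highest at day 6. miR-17-5p, which restrains cell cycle inhibitors, had 289, 685, 381, 296 and 197 RPM at days 0, 6, 10, 17 and 24. miR-20a-5p, reported in human stromal cells to favour osteogenic differentiation, had 1163, 2332, 1526, 1048 and 693 RPM on the same days. Both stood lowest at day 24. Day 24 over day 6 was 0.287 for miR-17-5p (95% interval 0.261 to 0.316) and 0.297 for miR-20a-5p (0.282 to 0.313), or 0.338 and 0.349 after TMM scaling.

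The miR-106b-25 members of this family had a similar peak. miR-93-5p, reported in mouse osteoblasts to target the transcription factor Sp7, had 639, 1909, 1308, 1016 and 765 RPM at days 0, 6, 10, 17 and 24. Day 24 over day 6 gave 0.401 (0.381 to 0.421). miR-106b-5p had 117, 219, 141, 179 and 99.2 RPM and was highest at day 6 and lowest at day 24, with a second high value at day 17. The step from day 0 to day 6 depends on the scaling: it was 2.99-fold in RPM for miR-93-5p and 1.86-fold after TMM scaling, and 1.87-fold against 1.17-fold for miR-106b-5p.

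miR-18a-5p, the member whose seed differs from that family by a base, was scarce and stood at 36.6, 49.4, 14.5, 17.3 and 12.8 RPM at days 0, 6, 10, 17 and 24. The first 2 days lay above the last 3, and day 24 over day 6 gave 0.258 (0.174 to 0.374). These values rest on 35 to 156 counts.

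The miR-19 pair did not follow that course. miR-19b-3p had 163, 294, 344, 436 and 315 RPM at days 0, 6, 10, 17 and 24, and miR-19a-3p had 40.6, 67.5, 57.8, 68.1 and 44.7 RPM. In RPM miR-19b-3p was highest at day 17 and lowest at day 0. For miR-19a-3p the order is less firm, since the counting intervals of days 6 and 17 overlap, as do those of days 0 and 24. Between day 6 and day 24 miR-19b-3p was the one member whose interval took in 1, with a ratio of 1.07 (0.974 to 1.18), while the other 9 had intervals below 1. After TMM scaling 9 members were lower at day 24 than at day 6, against 57.0% of 391 microRNAs. A fall of more than 1 on the log2 scale was seen in 5 members, against 9.97% of all microRNAs.

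The miR-92a seed pair parted. miR-92a-3p, whose targets in endothelium include integrin α5, had 2100.3, 1722, 977, 805.0 and 813 RPM at days 0, 6, 10, 17 and 24, so it was highest at day 0 and stood level over the last 2 days. miR-25-3p, with the same seed from the other cluster, had 714, 1528, 1334, 1048 and 1082 RPM and was lowest at day 0 in RPM. After TMM scaling it stood at 965, 1289, 1280, 966 and 1073, so day 0 was level with day 17. The ratio of miR-92a-3p to miR-25-3p, which does not depend on scaling between libraries, was 2.94 (2.82 to 3.07) at day 0, 1.13 at day 6, and 0.732, 0.768 and 0.751 at days 10, 17 and 24. miR-92a-1-5p had 39, 27, 11, 16 and 5 counts over the days, or 9.67, 8.56, 3.54, 4.06 and 1.82 RPM, and is limited by this depth.

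The linear day trend asked which members changed steadily over the 5 days, with the edgeR quasi-likelihood test and Benjamini-Hochberg adjustment over 391 microRNAs. It called 0 of the 10 members at an adjusted p under 0.05, against 2.30% of all microRNAs tested (1.02% higher and 1.28% lower, or 4 and 5 microRNAs). At an unadjusted p under 0.05 there were 5 members, all lower with day, against 13.0% of all microRNAs lower. The DESeq2 Wald test called 4 members lower, against 3.58% of all microRNAs, and limma called 0 microRNAs, members included. Fitted log2 changes over 24 days had a median of -0.97 for the members and -0.12 for all microRNAs. Below 0 were 9 of 10 members, or 7 with library totals and with limma. The share of all microRNAs below 0 was not counted.

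The nearest to the threshold was miR-92a-1-5p with a log2 change of -2.69 ± 0.57 (SE, adjusted p = 0.0502), and it passed in 7 of 16 other settings. Those settings include 2 fits without day 0 whose scaling was chosen after seeing the data. miR-18a-5p had -2.11 ± 0.55 and miR-92a-3p -1.80 ± 0.44 (adjusted p = 0.0895 each). miR-20a-5p had -1.45 ± 0.42 (0.108) and miR-17-5p -1.33 ± 0.47 (0.139). miR-19b-3p was the one member above 0, with 0.67 ± 0.41 (0.344). The other 4, miR-106b-5p, miR-93-5p, miR-19a-3p and miR-25-3p, lay between -0.61 and -0.08, and for the last 2 the sign depended on the scaling (0.07 and 0.13 with library totals). The spread of this fit is the departure from a straight line over 3 residual degrees of freedom, so a peak at day 6 widens it.

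Fitted without the day 0 library, the trend called 5 of 10 members lower and 0 higher, against 7.89% of 380 microRNAs lower, 7.11% higher and 15.0% in either direction. Scaled to 24 days, miR-17-5p fell by 1.99 ± 0.38 on the log2 scale (SE, edgeR adjusted p = 5.41e-05) and miR-20a-5p fell by 2.02 ± 0.38 (3.10e-05). miR-18a-5p fell by 2.05 ± 0.58 (0.00751), miR-93-5p fell by 1.44 ± 0.37 (0.00342) and miR-92a-3p fell by 1.07 ± 0.37 (0.0343). miR-92a-1-5p missed the threshold (-2.23 ± 0.83, 0.0547), as did miR-106b-5p (-0.93, 0.121), miR-25-3p (-0.47, 0.445), miR-19a-3p (-0.37, 0.666) and miR-19b-3p (0.44, 0.533). With library totals in place of TMM factors 6 members were lower, and with DESeq2 size factors 4, without miR-92a-3p (-0.92, 0.0817). These 2 scalings without day 0 were chosen after seeing the data. The fit rests on 4 libraries with day 6 at 1 end, so a change scaled to 24 days reaches beyond the days it covers.

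**Figure D3:**
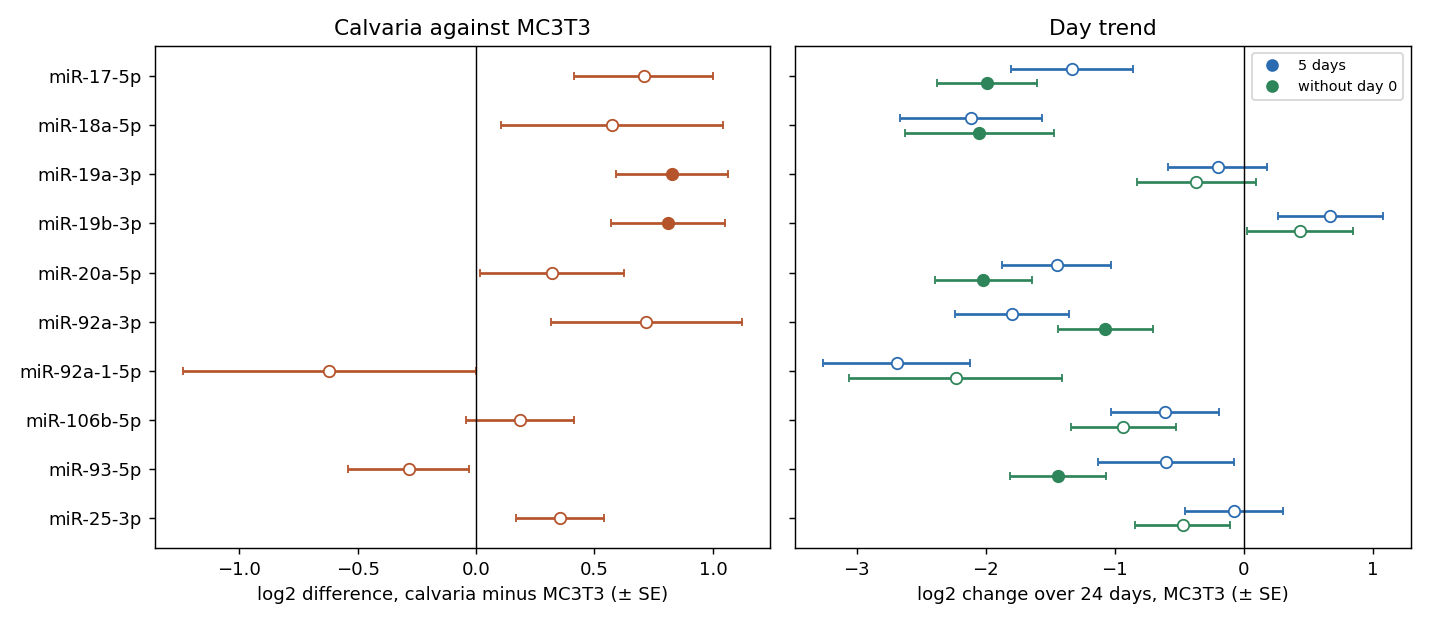
Left, log2 difference of calvaria minus MC3T3 for each member over all 8 libraries; right, fitted log2 change over 24 days in MC3T3 with all 5 days (blue) and without day 0 (green). Bars are ± SE and filled points have an edgeR adjusted p under 0.05: 2 members on the left, and on the right 0 with 5 days and 5 without day 0.

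Shares within a cluster use the counts of a single library and do not depend on the scaling between libraries. In calvaria miR-92a-3p held 43.1%, 44.8% and 41.4% of the cluster's counts, miR-20a-5p 33.0%, 31.9% and 31.6%, and miR-19b-3p 10.5%, 9.85% and 10.9% in calvaria 1, 2 and 3. The smaller shares of miR-17-5p (10.4%, 10.9% and 13.3%) and miR-18a-5p (0.751%, 0.579% and 1.03%) were highest in calvaria 3. There the interval of miR-17-5p (12.5 to 14.1) lay above those of both other libraries, and that of miR-18a-5p (0.808 to 1.3) above that of calvaria 2. In MC3T3 the make-up shifted over the days. miR-92a-3p held 55.2% at day 0 (95% interval 54.4 to 56.0), and 33.4%, 29.6%, 30.1% and 39.1% at days 6, 10, 17 and 24. miR-20a-5p held 30.6%, 45.2%, 46.2%, 39.2% and 33.4% on the same days. miR-19b-3p held 4.29% (3.98 to 4.62), 5.71%, 10.4%, 16.3% and 15.2% (14.2 to 16.1). The calvaria shares of these 3 lay inside the range of the MC3T3 days, while calvaria 3 passed the top of that range for miR-17-5p (13.28%) and miR-18a-5p (0.965%) by less than the counting intervals.

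The ratio of miR-19b-3p to miR-20a-5p was 0.32, 0.308 and 0.347 in calvaria, against 0.140, 0.126, 0.225, 0.416 and 0.455 over the MC3T3 days. The last 3 days each lay above the first 2, and calvaria lay between day 10 and day 17. Since miR-19b-3p and miR-92a-3p can also be made from the X-linked hairpins, these shares and ratios may include reads from those copies. The share of miR-25-3p in miR-106b-25 was 55.5%, 57.1% and 59.9% in calvaria, against 48.6%, 41.8%, 47.9%, 46.7% and 55.6% at days 0, 6, 10, 17 and 24 in MC3T3. The ranges met at calvaria 1 and MC3T3 day 24. miR-93-5p held 33.9% to 37.5% of miR-106b-25 in calvaria, below its 39.3% to 52.2% in MC3T3.

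**Figure D4:**
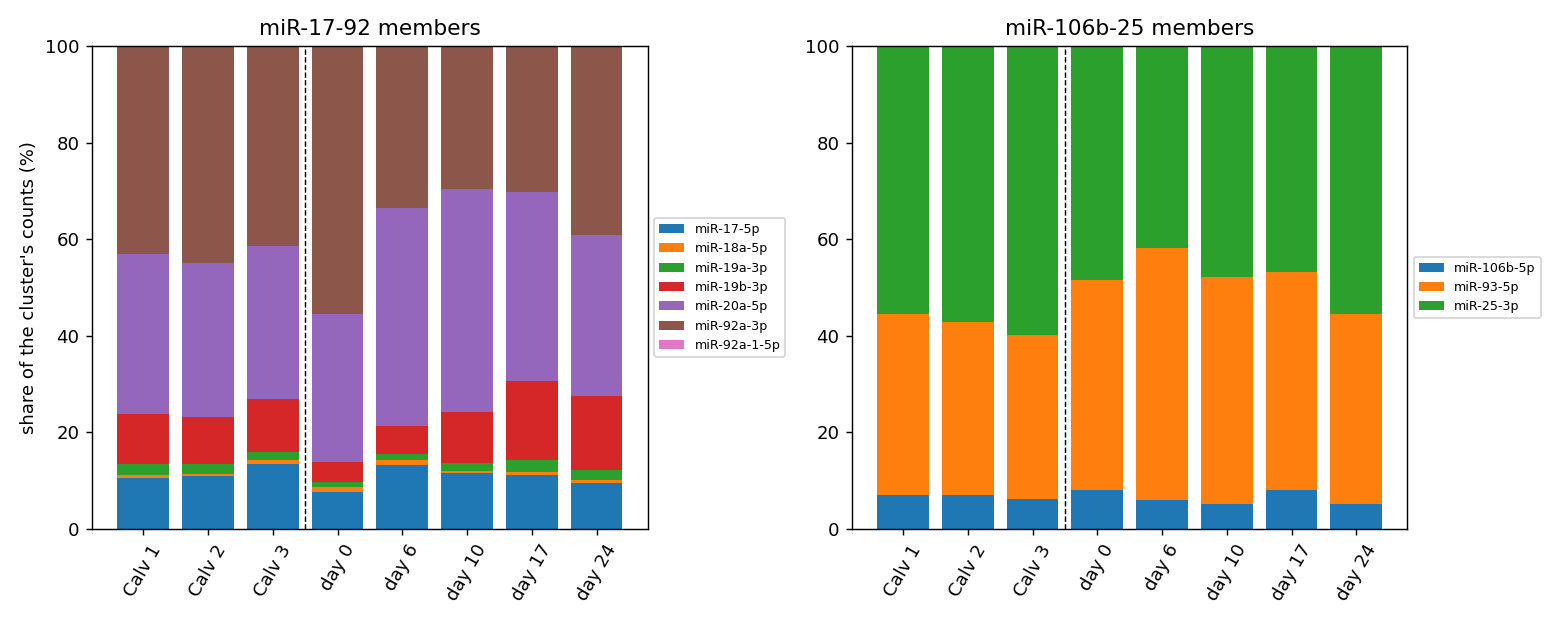
Share of each member in the counts of its cluster (%, stacked to 100) for the 3 calvaria libraries (left of the dashed line) and the 5 MC3T3 days. The miR-19b-3p share of miR-17-92 is 9.85% to 10.9% in calvaria and, in MC3T3, 4.29% at day 0 and 15.2% at day 24, and miR-25-3p takes 55.5% to 59.9% of miR-106b-25 in calvaria.

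Between the clusters, the summed miR-17-92 counts were 2.06 ± 0.226 times those of miR-106b-25 in calvaria (SD, n = 3). In MC3T3 the ratio was 2.59, 1.41, 1.19, 1.19 and 1.07 at days 0, 6, 10, 17 and 24. The calvaria ratios, 1.81 to 2.24, lay between day 0 and day 6. Summed by seed, the miR-17 family stood at 0.904 ± 0.0269 times the miR-92a seed pair in calvaria, against 0.785, 1.58, 1.45, 1.37 and 0.925 over the MC3T3 days. The end days of the course, 0 and 24, were thus nearer to calvaria in this ratio than the days between them.

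How calvaria differed from MC3T3 was tested with the edgeR quasi-likelihood test on 3 calvaria and 5 MC3T3 libraries. Changes between the days count as spread within MC3T3. The test called 2 of 10 members higher in calvaria and 0 lower, against 35.5% of 471 microRNAs higher and 28.7% lower (64.1% in either direction). Over all microRNAs that is 167 higher and 135 lower, and with upper quartile factors 142 and 192. With DESeq2 size factors 4 of 10 members were higher, against 39.1% of all microRNAs. Whether members were called more or less often than other microRNAs was not tested. The 2 members called with TMM factors form the miR-19 pair. In bulk samples, fewer cells of a type and less RNA per cell cannot be told apart.

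miR-19a-3p had 141, 113 and 81.9 RPM in calvaria 1, 2 and 3, against 40.6 to 68.1 RPM in MC3T3. miR-19b-3p had 687, 589 and 569 RPM in calvaria, against 163 to 436 RPM in MC3T3. In RPM the groups did not overlap for either. The share of all microRNAs without overlap was not counted, and 64.1% of 471 were called in either direction. The log2 differences were 0.83 ± 0.24 for miR-19a-3p (SE, edgeR adjusted p = 0.0106) and 0.81 ± 0.24 for miR-19b-3p (0.0125). Both calls were lost with upper quartile factors (0.37 each, adjusted p = 0.132 and 0.175), which move the median of all microRNAs to -0.37, from 0.06 with TMM factors. Calls were also lost against days 17 and 24 alone (0.69, adjusted p = 0.0630, and 0.41, 0.0717). For miR-19a-3p alone, the call was lost without calvaria 1 (0.66, 0.0774), without a filter on low counts (0.69, 0.0547) and against days 0 and 6 alone (0.85, 0.0547).

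In RPM the miR-92a seed pair also did not overlap between groups, a trait whose share over all microRNAs was not counted. The pair did not pass the test. The test used TMM scaling, after which the groups overlapped for miR-92a-3p. Its TMM-scaled RPM was 2934 at MC3T3 day 0, above its 1918 to 2617 in calvaria. For miR-25-3p the groups stayed apart on that scale (1471 to 1533 in calvaria and 997 to 1341 in MC3T3). miR-92a-3p had 2811, 2680.3 and 2151 RPM in calvaria, against 805.0 to 2100.3 RPM in MC3T3, a log2 difference of 0.72 ± 0.40 (edgeR adjusted p = 0.139). The value depends on the day 0 library and on the scaling. With library totals it was 0.99 (0.0280) and with limma 1.1 and 1.09 (0.0222 and 0.0232 for pseudocounts 1 and 10). Without day 0 the difference was 1.17 ± 0.24 (0.000931), in a fit that called 38.8% of 461 microRNAs higher, 31.5% lower and 70.3% in either direction. miR-25-3p had 1614, 1600.1 and 1720 RPM in calvaria, against 714 to 1528 RPM in MC3T3, a log2 difference of 0.35 ± 0.19 (0.12) that changed sign with upper quartile factors (-0.08) and passed with DESeq2 size factors (0.52, 0.0281) and the DESeq2 Wald test (0.52, 0.00601). Values of miR-25-3p were close together in calvaria, and all 5 MC3T3 days lay below them.

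Within the miR-17 seed family miR-17-5p had 682, 650 and 692 RPM in calvaria, against 197 to 685 RPM in MC3T3. In RPM day 6 alone reached the calvaria range. After TMM scaling miR-17-5p stood at 592 at day 6, just below its 598 to 634 in calvaria. Its log2 difference was 0.71 ± 0.29 (edgeR adjusted p = 0.0550), and it passed in 8 of 19 other settings, among them without day 0 (0.73, 0.0428), without day 6 (0.99, 0.0100) and with DESeq2 size factors (0.87, 0.0275). miR-20a-5p averaged 1900 ± 255 RPM in calvaria and 1352 ± 623 RPM over the 5 MC3T3 days (log2 0.32 ± 0.30, adjusted p = 0.371). miR-93-5p averaged 1023 ± 61.0 RPM in calvaria and 1127 ± 507 RPM in MC3T3 (-0.28 ± 0.26, 0.347), and was the one abundant member below 0. miR-106b-5p averaged 194 ± 13.2 RPM in calvaria and 151 ± 48.4 RPM in MC3T3 (0.19 ± 0.23, 0.490). The ratio of miR-20a-5p to miR-17-5p was 2.37 to 3.16 in calvaria, below all 5 MC3T3 days (3.40 to 4.02). Both counts hold divided reads, so this difference in ratio was not tested and carries that limit.

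miR-18a-5p averaged 45.8 ± 9.78 RPM in calvaria and 26.1 ± 16.2 RPM in MC3T3 (log2 0.57 ± 0.47, edgeR adjusted p = 0.300). miR-92a-1-5p averaged 4.50 ± 1.81 RPM in calvaria, from 5 to 8 counts a library, and 5.53 ± 3.40 RPM in MC3T3 (-0.62 ± 0.62, 0.397). Neither separated the groups.

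Which MC3T3 days stand for the line changed the members called. Against days 17 and 24 alone, 4 of 9 members tested were higher in calvaria, near the 38.9% of all microRNAs that were higher: miR-92a-3p by 1.35 ± 0.16 log2 (SE, edgeR adjusted p = 0.000299), miR-18a-5p by 1.29 ± 0.30 (0.00720), miR-17-5p by 1.16 ± 0.20 (0.00183) and miR-20a-5p by 0.83 ± 0.20 (0.00808). Against days 0 and 6 alone, miR-19b-3p was higher (1.24, 0.00599) and miR-92a-1-5p was lower (-1.36, 0.0409), while miR-20a-5p (-0.05) and miR-18a-5p (-0.16) changed sign without passing. In that fit 38.0% of all microRNAs were higher and 25.8% lower. Each of these fits compares 3 calvaria libraries with 2 MC3T3 libraries.

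Markers of other cell types were set beside the same comparison, and they did not all move in the same direction. The 7 blood cell microRNAs summed to 308 to 454 RPM in calvaria and 38.9 to 111 RPM in MC3T3, and 5 of the 7 were at 0 in at least 1 MC3T3 library. The MC3T3 sum was almost wholly miR-486-5p, which had 47.8 to 59.6 RPM in calvaria and 36.5 to 107 RPM in MC3T3 (log2 -0.80 ± 0.27, edgeR adjusted p = 0.0236, lower in calvaria). The other 6, singled out after their values were seen, summed to 259.9 to 395 RPM in calvaria and 0.951 to 5.47 RPM in MC3T3. Both endothelial markers, the arms of miR-126, summed to 9028 to 20323 RPM in calvaria and 6.2 to 19.0 RPM in MC3T3. Both cartilage markers, the arms of miR-140, summed to 55110 to 99359 RPM in calvaria and 16831 to 24518 RPM in MC3T3. The nervous system pair summed to 57.5 to 92.3 RPM in calvaria and 14.4 to 54.0 RPM in MC3T3, where miR-124-3p was at 0 counts, as it was in 2 of the 3 calvaria libraries. That sum was thus almost wholly miR-9-5p, which did not pass the test (log2 0.68 ± 0.35, edgeR adjusted p = 0.109). The summed muscle markers overlapped (276 to 635 RPM in calvaria and 197 to 573 RPM in MC3T3) through miR-206-3p (45.0 to 203 RPM in calvaria and 104 to 556 RPM in MC3T3). The other 2 muscle markers were higher in calvaria. miR-1a-3p had 202 to 381 RPM in calvaria and 16.1 to 88.1 RPM in MC3T3 (edgeR adjusted p = 0.00113), and miR-133a-3p had 28.8 to 50.4 RPM in calvaria and 0.992 to 5.47 RPM in MC3T3 (3.9e-05). The epithelial pair overlapped, at 4.44 RPM or less. The 4 mesenchyme markers, at 110434 to 165855 RPM, overlapped in their sum. Taken alone, miR-214-3p overlapped as well (3129 to 3590 RPM in calvaria and 2678 to 4138 RPM in MC3T3, edgeR adjusted p = 0.222), and the others did not. miR-199a-3p was higher in calvaria (49959 to 55986 RPM, against 19984 to 41864 RPM in MC3T3, edgeR adjusted p = 0.0325), whereas miR-143-3p (50332 to 64103 RPM in calvaria and 87473 to 117479 RPM in MC3T3, 0.000525) and miR-145a-5p (987 to 1175 RPM in calvaria and 1306 to 2897 RPM in MC3T3, 0.000332) were lower. The part of blood, endothelial, cartilage and muscle cells in the calvaria values of the 10 members was not tested. Over the MC3T3 days miR-206-3p had 556 RPM at day 0 and 104 to 144 RPM later, whereas miR-1a-3p had 16.1 RPM at day 0 and 58.9 to 88.1 RPM later and miR-133a-3p 0.992 RPM at day 0 and 4.48 to 5.47 RPM later. miR-486-5p had 36.5 RPM at day 0 and 81.1 to 107 RPM later. Their part in the day courses was not tested either.

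The opposite arms of the same hairpins were measured beside the members. In miR-106b both arms were abundant, with a 5p to 3p ratio of 0.867 to 1.01 in calvaria and 0.633 to 1.07 in MC3T3. In the other hairpins 1 arm prevailed. miR-17-5p exceeded miR-17-3p by 16.8 to 25.1 times in calvaria and 13.8 to 25.1 times in MC3T3. The ratio of miR-25-3p to miR-25-5p was 273 ± 57.1 in calvaria (SD, n = 3), against 32.7, 68.9, 159, 105.9 and 135 at days 0, 6, 10, 17 and 24 in MC3T3. All 3 calvaria ratios (216 to 330.0) lay above all 5 days, although they rest on 7 to 15 counts of miR-25-5p.

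Of 8 listed opposite arms, 5 passed the filter on low counts. In the calvaria comparison miR-17-3p was higher by 0.67 ± 0.26 log2 (edgeR adjusted p = 0.0416) and miR-25-5p was lower, with a log2 difference of -1.41 ± 0.51 (0.0323). The miR-17-3p call was lost in 10 of 18 other settings and the miR-25-5p call in 7 of 18, among them the removal of any 1 of the 3 calvaria libraries for miR-25-5p (adjusted p = 0.0918, 0.0862 and 0.112). For miR-17-3p it was lost without calvaria 1 (0.197) or 2 (0.0643) and without any MC3T3 day but day 6 (0.0521 to 0.0827). In the day trend 0 of the 5 passed at an adjusted p under 0.05. At an unadjusted p under 0.05 there were 3, all lower with day, against 13.0% of all microRNAs lower and 23.3% in either direction. Across the members' hairpins miR-19a-5p had 0 counts in all libraries.

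The X-linked miR-106a-363 cluster was scarce in these libraries, and 0 of its 6 listed microRNAs had enough counts to be tested. miR-106a-5p averaged 4.47 ± 2.40 RPM in calvaria and 1.52 ± 0.85 RPM in MC3T3. miR-20b-5p averaged 4.54 ± 1.5 RPM in calvaria and 1.73 ± 0.98 RPM in MC3T3. miR-363-3p had 9, 20 and 7 counts in calvaria and 0 counts in all 5 MC3T3 libraries. The opposite arms miR-92a-2-5p and miR-19b-2-5p, which come from the X-linked copies alone, had 0 counts in all 8 libraries, while miR-92a-1-5p had 5 to 39. For miR-19b the chromosome 14 arm, miR-19b-1-5p, also had only 0 to 1 counts a library, so these arms cannot tell its loci apart. The even split of miR-19b-3p between its loci stands beside an X-linked cluster whose own microRNAs were scarce, and the locus its reads came from was not tested.

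Beyond both clusters, 2 of 3 listed relatives with the miR-92a seed were tested. miR-32-5p had 67.7 to 99.0 RPM in calvaria, below the 100.6 to 248 RPM of the MC3T3 days, a log2 difference of -1.12 ± 0.26 (edgeR adjusted p = 0.00361), which passed in all 19 other settings where it was tested. miR-92b-3p had 71.3, 76.5 and 43.9 RPM in calvaria, against 16.2 to 45.3 RPM in MC3T3 (0.90 ± 0.42, 0.0858). Over the MC3T3 days miR-92b-3p was highest at day 0 (45.3 RPM), as miR-92a-3p was, and miR-32-5p was highest at day 6 (248 RPM), as miR-25-3p was. Neither passed the day trend.

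The microRNAs whose pattern was most like the clusters were found by the Pearson correlation of log2 CPM over the libraries among 360 others. The libraries share their scaling and the 3 calvaria libraries count as much as the days, so the values are descriptions. For the mean of miR-17-5p, miR-18a-5p, miR-19a-3p and miR-20a-5p, which have 1 locus each, the nearest over all 8 libraries was miR-421-3p (r = 0.93), followed by miR-130a-5p (0.90) and miR-1983 (0.90). miR-421-3p had 74.4, 60.8 and 60.3 RPM in calvaria, against 31.0, 50.1, 40.3, 36.3 and 27.7 RPM over the MC3T3 days. It was also close over the 5 MC3T3 libraries (0.95), where miR-7a-1-3p and miR-466o-5p came first (0.97 each).
For the mean of the 3 miR-106b-25 members the nearest over 8 libraries was miR-3473b (0.78), then miR-103-3p (0.75) and miR-331-3p (0.71). miR-103-3p, an abundant microRNA, had 3478, 3421 and 3460 RPM in calvaria, against 1528, 3889, 3419, 2813 and 2462 RPM over the MC3T3 days. Over the 5 MC3T3 libraries the nearest were miR-466b-3p, miR-466c-3p and miR-466e-3p (0.97 each), near-identical microRNAs of 1 family whose reads may be shared.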

How the data were processed

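Small RNA libraries (NEBNext kit, per the labels' protocols) were deposited as 2 tables with 1418 entries, 1 per mature microRNA and precursor. The first holds estimated counts, deposited by the authors without normalization. The second holds RPM, deposited by the authors, and each value equals the count over the library total within 0.0127 RPM. The submitters' processing notes name cutadapt 0.9.5, Bowtie 0.12.7 and the mm10 genome. No source at hand names the quantifier or the release of miRBase. MC3T3 columns are named with a day 3 lower than their titles, and 4 of them carry the mark "veh", which no label explains. Days follow the titles.

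Counts were summed per mature microRNA and rounded. Those with 10 counts in at least 2 of 5 libraries (day trend, slope times 24 days, 3 residual degrees of freedom) or at least 3 of 8 (calvaria minus MC3T3) were tested with edgeR 4.0.16 (quasi-likelihood, TMM) in R 4.3.3, with Benjamini-Hochberg adjustment over all of them and a threshold of 0.05. The alternatives were other scalings and filters, DESeq2 1.42.0, limma 3.58.1 (pseudocounts 1 and 10), single entries, a log2 day scale and leaving out each library. The fits were tested on simulated data, whose day changes were linear, with no peak at day 6 and no library set apart as day 0 is. Intervals are exact at 95%. Named microRNAs were the 10 members, listed relatives that passed, and the 5 others with the most similar log2 CPM (prior count 2). The members, lists and markers were chosen with earlier results of these data known. RefSeq sequences (GRCm38.p6) and the GENCODE annotation of GRCm38 gave sequences and loci.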

Additional observations from a re-analysis of the deposited data

How the results depend on the processing

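Limits. No paired analysis was possible because each MC3T3 day is 1 library and the labels carry no replicate numbers that the groups share. Each day is a pool, so culture spread is not seen, and counts below about 40 (miR-92a-1-5p) limit its values.

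For the day trend, 134 member values kept their direction and side of the threshold under the alternatives, 27 newly passed and 10 changed sign. This tally includes the 2 scalings without day 0 that were chosen after seeing the data. Those that changed sign had small values: miR-19a-3p with library totals (0.072), limma (0.075 and 0.062 for pseudocounts 1 and 10) and without day 24 (0.26; over libraries left out, -0.37 to 0.26), and miR-25-3p with library totals (0.13), limma (0.24 and 0.23), a log2 day scale (0.12), without day 6 (0.055) and without day 17 (0.13; over libraries left out, -0.47 to 0.13). The cause was not tested. Over all microRNAs, 4 higher and 5 lower became 0 and 0 with library totals and with limma at either pseudocount, 19 and 14 with the DESeq2 Wald test, 7 and 10 without a filter, 0 and 1 with a minimum of 100 counts, 6 and 8 with 1 entry per precursor, and 39 and 49 on a log2 day scale. Members lower were 1 with upper quartile factors, without a filter and with 1 entry per precursor, 4 with DESeq2 and 3 on a log2 day scale. Leaving out 1 library gave 0 to 27 microRNAs higher, 0 to 30 lower and 0 to 5 members lower (5 without day 0, 2 without day 10, 0 without day 6, 17 or 24). Without day 0, library totals gave 22 higher, 41 lower and 6 members lower, and DESeq2 size factors 32, 25 and 4.

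For calvaria against MC3T3, 158 member values kept direction and call, 19 newly passed, 7 lost the call and 5 changed sign: with upper quartile factors miR-106b-5p (-0.26), miR-20a-5p (-0.13) and miR-25-3p (-0.084), and against days 0 and 6 miR-18a-5p (-0.16) and miR-20a-5p (-0.045). Members higher were 4 with the DESeq2 Wald test, its size factors alone, and limma at either pseudocount, 0 with upper quartile factors (1 lower, miR-93-5p, -0.72), 1 without a filter, 4 against days 17 and 24, and 1 against days 0 and 6 (1 lower). Leaving out 1 library gave 1 to 4. A minimum of 100 counts, which tests fewer microRNAs, gave 81 higher and 75 lower. Other counts over all microRNAs stayed within 1.5 times.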
